A study of Mus musculus with 32 samples.

Results

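The genes described here encode enzymes of branched-chain amino acid breakdown and of polyamine metabolism, measured in CD4+ T cells of the mouse. The 10 genes were chosen by name: the branched-chain transaminases Bcat1 and Bcat2, the ketoacid dehydrogenase subunits Bckdha and Bckdhb with their kinase Bckdk, and the polyamine enzymes Odc1, Srm, Sms, Sat1 and Smox. Matched by gene symbol, 9 of the 10 were among 22180 genes on the 48 h arrays, and all 10 were among 17097 genes on the 72 h arrays. Over the arrays of both times 23339 different genes were measured. At 48 h Sms was represented only by a probe set shared with the pseudogene Sms-ps, so it was not analysed there.

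All 32 arrays came from Balb/c mice carrying the DO11.10 T cell receptor transgene, whose receptor recognises an ovalbumin peptide (OVA, called antigen here). CD4+ T cells of axial and cervical lymph nodes were cultured on thioglycollate-elicited peritoneal macrophages and sorted by CD4 at 48 h (23 arrays) or 72 h (9 arrays). At 48 h the groups with antigen were cultures on macrophages first exposed to a pair of cytokines, IL-4 with IL-10, each at 10 ng/mL and then washed away, cultures whose RPMI held 1% of the usual arginine, leucine or lysine, and cultures with OVA alone. The cultures with OVA alone carry no label of a reduced amino acid and are called full medium here. The groups without antigen at 48 h were cultures at 1% arginine, 1% leucine or 1% lysine. At 72 h the groups were antigen on IL-4/IL-10-pretreated macrophages, antigen alone, and cultures with neither. Each group held 3 arrays, except 1% arginine without antigen, which held 2. The labels do not say whether replicates were separate cultures or animals, so every p-value here rests on the spread among these samples, which may be technical.

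Breakdown of leucine, isoleucine and valine starts with a reversible transamination, carried out by BCAT1 in the cytosol and BCAT2 in mitochondria. The ketoacids that result are oxidised by a mitochondrial dehydrogenase complex whose E1 subunits are encoded by Bckdha and Bckdhb and which the kinase BCKDK switches off. In polyamine synthesis, ODC1 makes putrescine from ornithine, SRM makes spermidine and SMS makes spermine, while SAT1 and SMOX act in breakdown and back-conversion. Activated T cells are known to raise amino acid uptake and polyamine synthesis as they grow.

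All values are log2 expression as deposited, compared within an array type only, since probe sets of different genes have no common scale. The median over genes ranged from 5.58 to 5.85 among the 48 h arrays and from 4.61 to 5.35 among those of 72 h. No 2 arrays were identical. CD4 T cell markers were high on every array and on average higher with antigen. At 48 h the mean of the 11 measured of 15 was 10.2 to 10.6 with antigen, against 9.84 to 10.3 without, and at 72 h it was 10.2 to 10.8 with antigen, against 9.26 to 9.53 without. Macrophage, mesothelial and stromal markers also differed between arrays with and without antigen. At 48 h the mean of 20 macrophage markers lay between 6.03 and 7.13 with antigen, against 6.80 to 7.17 without antigen. At 72 h it lay between 3.90 and 4.30 with antigen, against 5.0 to 6.96 without. The mean of 18 mesothelial and stromal markers, a list that was chosen with earlier results of these data known, lay between 3.95 and 5.81 with antigen at 72 h, against 9.43 to 9.68 without. At 48 h it lay between 5.19 and 5.68 with antigen, against 5.61 to 6.25 without. All 18 were called lower with antigen at 72 h, so the 72 h libraries labelled CD4+ T cells without antigen also carried high levels of genes of another cell type, and every comparison with them below shares that difference. In sorted bulk samples, fewer cells of a type and less RNA per cell cannot be told apart.

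Upstream sequences are shown for 4 genes that were called higher with antigen below, chosen after their values were seen. The sequences are the 250 bases before a start site in RefSeq's annotation of GRCm38.p6, of which 9 of the 10 genes had at least 1 entry (13 entries in all). Srm had none. Capitals mark matches, on either strand, to an E-box (CACGTG, bound by MYC and its relatives), a GC box (GGGCGG) or a TATA box (TATAAA). Bcat1, Bckdhb and Sms had 2 entries each, and the one shown is that with a match to the E-box or TATA box or, for Bckdhb, the GC box. The region of Bcat1 is chr6:145076158-145076407, minus strand, with a TATA box match 219 bases before the start. That of Bckdhb is chr9:83924887-83925136, plus strand, with GC boxes. That of Odc1 is chr12:17544623-17544872, plus strand, with GC boxes, and that of Sms is chrX:157492288-157492537, minus strand, with an E-box. The entry of Sms not shown held 4 GC boxes and no E-box, and those of Bcat1 and Bckdhb not shown held none of these motifs.
Bcat1: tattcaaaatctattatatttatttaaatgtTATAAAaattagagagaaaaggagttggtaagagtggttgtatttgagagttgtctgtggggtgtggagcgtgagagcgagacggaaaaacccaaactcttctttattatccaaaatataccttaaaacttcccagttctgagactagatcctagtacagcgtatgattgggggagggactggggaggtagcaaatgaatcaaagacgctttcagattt
Bckdhb: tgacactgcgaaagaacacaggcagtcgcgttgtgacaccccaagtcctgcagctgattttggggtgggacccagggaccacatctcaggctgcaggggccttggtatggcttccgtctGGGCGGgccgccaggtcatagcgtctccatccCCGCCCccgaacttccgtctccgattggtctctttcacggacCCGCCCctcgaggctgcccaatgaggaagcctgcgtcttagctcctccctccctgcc
Odc1: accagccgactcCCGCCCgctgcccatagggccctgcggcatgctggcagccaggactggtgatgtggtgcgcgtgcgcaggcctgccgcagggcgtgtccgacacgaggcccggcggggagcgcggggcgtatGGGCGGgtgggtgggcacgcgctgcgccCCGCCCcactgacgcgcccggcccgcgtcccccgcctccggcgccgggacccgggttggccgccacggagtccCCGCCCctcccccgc
Sms: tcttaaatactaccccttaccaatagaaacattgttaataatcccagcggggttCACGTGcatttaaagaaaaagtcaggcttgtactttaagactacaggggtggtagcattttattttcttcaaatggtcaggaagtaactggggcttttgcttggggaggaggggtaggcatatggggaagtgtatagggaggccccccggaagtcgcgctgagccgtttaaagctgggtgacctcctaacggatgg
The E-box was found in 1 of the 9 genes with an entry, Sms, where it lies 196 bases before the start. That is 1 of the 13 entries, against 6.02% of all 32851 RefSeq promoter entries cut to the same window. The GC box was found in 5 genes (Bckdhb, Odc1, Sat1, Smox and Sms), or 5 of the 13 entries, and in 32.7% of all entries. The TATA box was found in 2 genes, Bcat1 and Bckdk, or 2 of the 13 entries, and in 12.4% of all entries. These 2 matches lie 219 and 169 bases before the start. The core TGATGNAA, bound by C/EBP and ATF factors, was found in none of the 13 entries and in 3.45% of all entries. Each sequence shown held matches to only 1 of these motifs. A match is a description of the letters and not a binding site.

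Antigen raised Bcat1, Bckdhb, Odc1 and Srm in every low amino acid medium at 48 h. Bcat2 and Bckdk were also called higher in each medium. The Bcat2 calls at 1% arginine and 1% lysine and the Bckdk call at 1% lysine ended under some alternatives. With antigen against without, 7 of 9 genes were called higher at 1% arginine, 8 of 9 at 1% leucine and 6 of 9 at 1% lysine, and none was called lower. A gene was called where the p-value of limma's moderated test, adjusted over all genes of the array type, was below 0.05. Of all 22180 genes, 17.2%, 21.8% and 18.4% were called higher in these comparisons, 12.2%, 19.5% and 12.6% lower and 29.4%, 41.3% and 31% in either direction. The median log2 change of the 9 genes was 0.89 at 1% arginine, 1.09 at 1% leucine and 0.59 at 1% lysine, while that of all genes was -0.12, -0.13 and -0.09. With each array centred on its median the all-gene medians were 0.07, 0.05 and 0.05, and the split of calls moved to 4804 higher and 985 lower genes at 1% arginine (3812 and 2705 uncentred), 5921 and 1881 at 1% leucine (4830 and 4335 uncentred) and 4834 and 1287 at 1% lysine (4086 and 2798 uncentred).

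Bcat1, the cytosolic transaminase, had the widest range of the 9 genes over the 48 h arrays. At 1% arginine its log2 values were 8.53, 8.52 and 8.91 with antigen, against 5.84 and 6.30 without. At 1% leucine they were 8.67, 8.60 and 8.69 with antigen, against 5.87, 6.06 and 6.46 without. At 1% lysine they were 8.56, 8.17 and 8.27 with antigen, against 6.47, 6.30 and 6.11 without. Every array with antigen lay above every array without it. The fold changes were 6.01, 5.75 and 4.11, with log2 differences of 2.59 ± 0.18 (SE), 2.52 ± 0.16 and 2.04 ± 0.16 (adjusted p = 3.77e-10, 5.54e-11 and 1.85e-09 by limma).

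**Figure D1:**
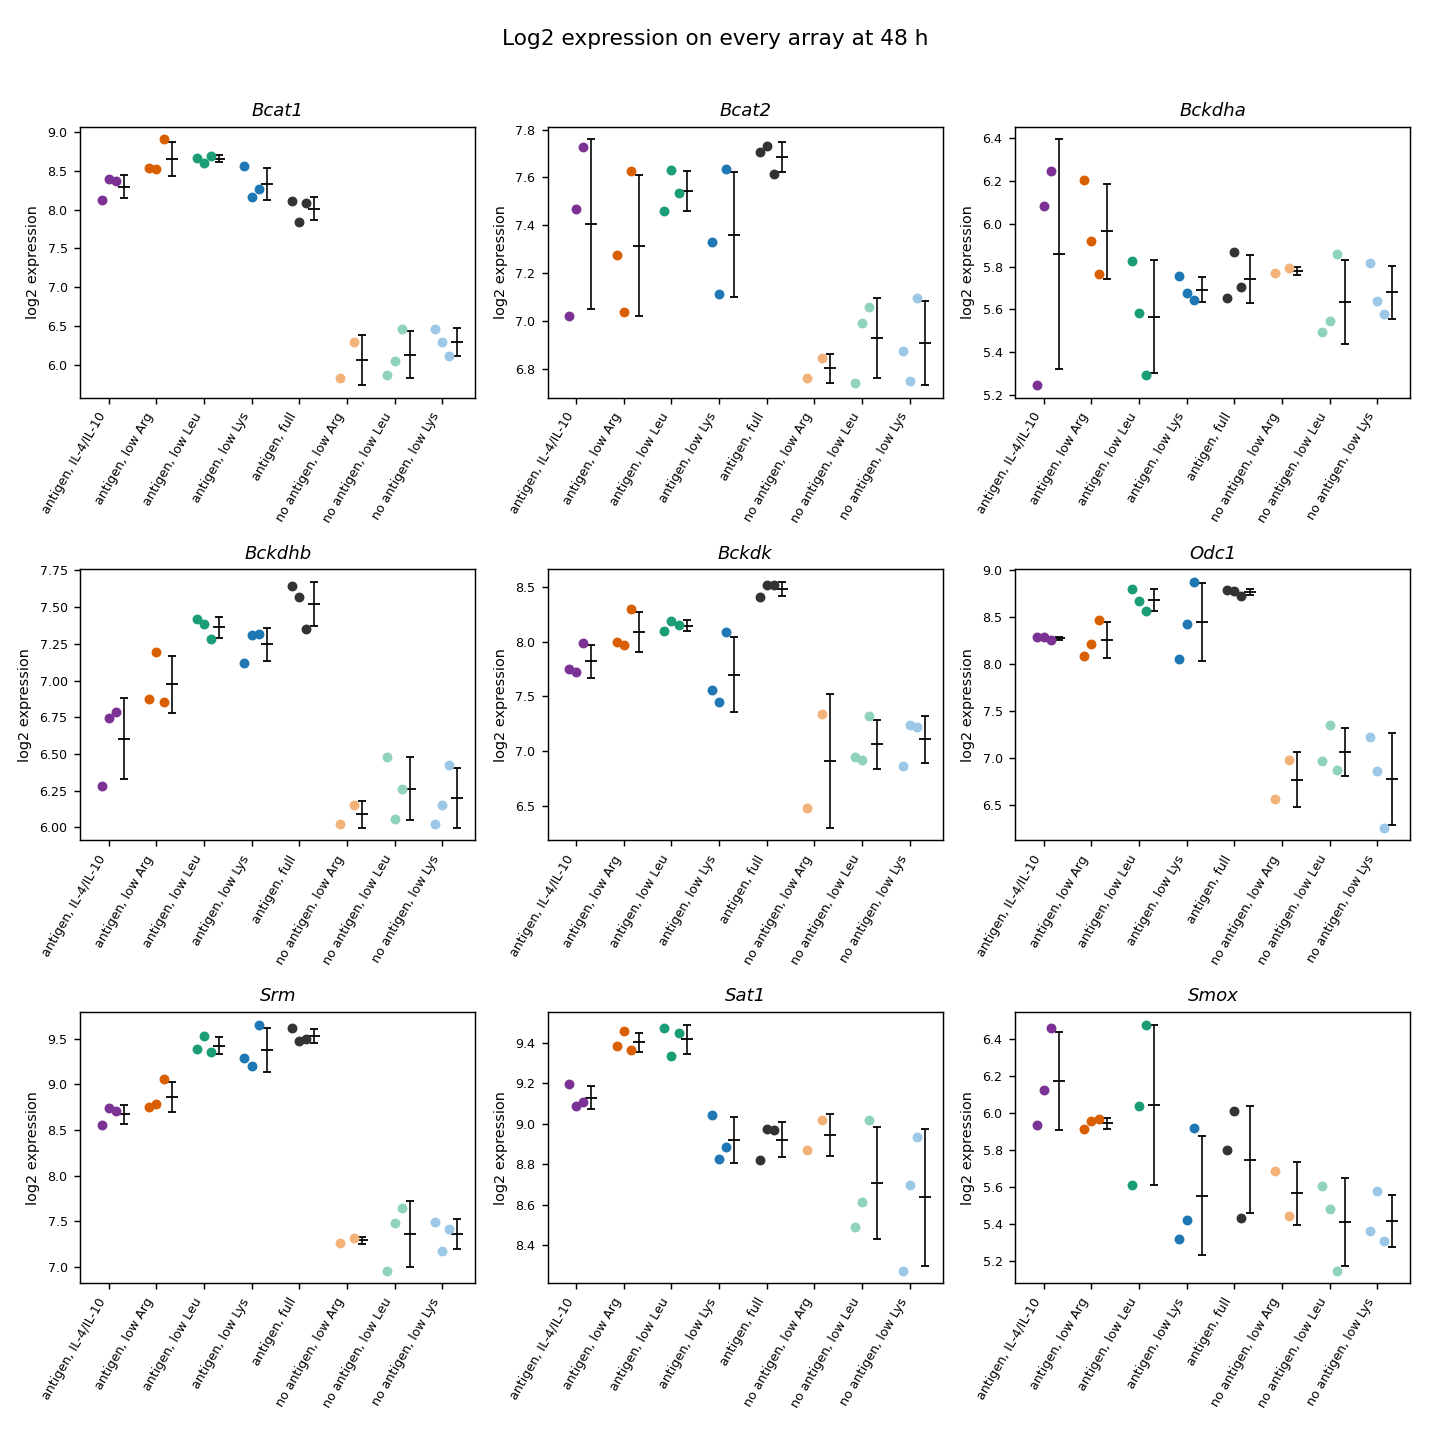
Log2 expression of the 9 measured genes on each of the 23 arrays at 48 h. Points are arrays in replicate order and bars are the group mean ± SD (n = 3, or 2 for 1% arginine without antigen). The 5 groups on the left of each panel received antigen, and Bcat1, Odc1 and Srm lie higher in all of them than in any group without antigen.

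Bcat2, the mitochondrial transaminase, differed much less. Its values were 7.28, 7.04 and 7.63 with antigen at 1% arginine, against 6.76 and 6.84 without. They were 7.46, 7.63 and 7.54 with antigen at 1% leucine, against 6.74, 6.99 and 7.06 without, and 7.33, 7.11 and 7.63 with antigen at 1% lysine, against 6.87, 6.75 and 7.09 without. The groups did not overlap in any of the 3 media, and the increases were 1.43-fold, 1.53-fold and 1.37-fold. The call held under every alternative at 1% leucine (adjusted p = 0.00691). It was marginal at 1% arginine (adjusted p = 0.0499) and 1% lysine (0.0498), where leaving out any 1 of 4 arrays ended it: antigen replicates 1 and 3 in each medium, both arrays without antigen at 1% arginine (adjusted p from 0.0796 to 0.216), and replicates 1 and 2 without antigen at 1% lysine (0.0786 to 0.244). Quantile normalization ended both calls as well (0.091 and 0.0828).

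Of the dehydrogenase complex, Bckdhb rose in all 3 media and Bckdha was not called in any. Bckdhb, the E1 beta subunit, had 6.87, 7.19 and 6.85 with antigen at 1% arginine, against 6.02 and 6.15 without. It had 7.42, 7.39 and 7.28 with antigen at 1% leucine, against 6.48, 6.05 and 6.26 without, and 7.12, 7.31 and 7.31 with antigen at 1% lysine, against 6.02, 6.15 and 6.43 without. These are increases of 1.85-fold, 2.14-fold and 2.06-fold (adjusted p = 0.000395, 5e-06 and 1.26e-05). Bckdha, the E1 alpha subunit, averaged 5.96 ± 0.22, 5.57 ± 0.27 and 5.69 ± 0.06 (SD) with antigen at 1% arginine, leucine and lysine, against 5.78 ± 0.02, 5.63 ± 0.20 and 5.68 ± 0.12 without. Its log2 differences were 0.18 (95% interval -0.27 to 0.63), -0.07 (-0.47 to 0.34) and 0.01 (-0.39 to 0.42). Its mean over all 48 h arrays stood at the 50.5th percentile of genes, close to the median signal.

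Bckdk, the kinase that inactivates the complex, rose as well. Its values were 8.00, 7.97 and 8.30 with antigen at 1% arginine, against 6.48 and 7.34 without. They were 8.10, 8.19 and 8.15 with antigen at 1% leucine, against 6.95, 6.92 and 7.32 without, and 7.56, 7.45 and 8.09 with antigen at 1% lysine, against 6.86, 7.24 and 7.22 without. The increases were 2.26-fold (adjusted p = 0.000156), 2.12-fold (7.31e-05) and 1.51-fold (0.0202). At 1% lysine the call ended without antigen replicate 3 (log2 difference 0.40, adjusted p = 0.154), without replicate 1 of the cultures lacking antigen (0.47, 0.103) and with quantile normalization (0.45, 0.0891). It also ended when only the compared groups were fitted (0.0601), and with runs of submitter numbers as a block in that fit (0.0525). These runs were cut here from the order of the numbers. The labels do not say what the numbers stand for and name no such runs.

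The synthesis genes Odc1 and Srm of the polyamine route rose by more than Bcat2, Bckdhb and Bckdk. They rose by less than Bcat1, although at 1% lysine Srm rose by nearly as much as Bcat1. Odc1, which encodes the enzyme that commits ornithine to polyamines, had 8.09, 8.21 and 8.47 with antigen at 1% arginine, against 6.57 and 6.98 without. It had 8.80, 8.68 and 8.57 with antigen at 1% leucine, against 6.97, 7.35 and 6.87 without, and 8.05, 8.43 and 8.88 with antigen at 1% lysine, against 7.23, 6.86 and 6.26 without. The groups were apart in each medium, by 2.8-fold, 3.07-fold and 3.18-fold (adjusted p = 2.63e-05, 1.24e-06 and 1.05e-06).

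Srm, the spermidine synthase gene, had 8.75, 8.78 and 9.06 with antigen at 1% arginine, against 7.26 and 7.32 without. It had 9.38, 9.53 and 9.36 with antigen at 1% leucine, against 6.95, 7.48 and 7.64 without, and 9.29, 9.20 and 9.66 with antigen at 1% lysine, against 7.49, 7.17 and 7.41 without. The lowest array with antigen lay above the highest without antigen in every medium. The log2 differences were 1.58 ± 0.17, 2.06 ± 0.15 and 2.02 ± 0.15, or 2.98-fold, 4.17-fold and 4.06-fold (adjusted p = 2.33e-07, 4.46e-10 and 6.82e-10).

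The catabolic polyamine genes moved less. Sat1, the spermidine/spermine acetyltransferase gene, had 9.38, 9.46 and 9.36 with antigen at 1% arginine, against 8.87 and 9.02 without. It had 9.47, 9.34 and 9.45 with antigen at 1% leucine, against 8.49, 8.61 and 9.02 without, and 9.04, 8.83 and 8.88 with antigen at 1% lysine, against 8.27, 8.70 and 8.94 without. The groups overlapped only at 1% lysine. Sat1 was called higher at 1% leucine (log2 difference 0.71 ± 0.14, adjusted p = 0.000343) and at 1% arginine (0.46 ± 0.16, 0.0337), and not at 1% lysine (0.28 ± 0.14, 0.137). The 1% arginine call ended with quantile normalization (0.15, 0.549) and without any 1 of the 5 arrays (adjusted p from 0.0591 to 0.215). At 1% lysine Sat1 passed the threshold without replicate 3 lacking antigen (0.43, 0.0284). Smox, the spermine oxidase gene, was called higher only at 1% leucine, with values of 5.61, 6.04 and 6.48 with antigen, against 5.61, 5.48 and 5.15 without (log2 difference 0.63 ± 0.20, adjusted p = 0.0165). That call ended without antigen replicate 3 (0.41, 0.131) or replicate 3 lacking antigen (0.50, 0.0778). It also ended with the replicate number as a block in a fit of the compared groups only (0.0566). The mean of Smox over all 48 h arrays stood at the 50.6th percentile of genes, close to the median signal. The differences at 1% arginine and 1% lysine were 0.38 (95% interval -0.09 to 0.85) and 0.14 (-0.29 to 0.56).

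The size of the antigen effect was compared between the 3 low media with limma's moderated F test. None of the 9 genes was called different, against 33 of 22180 genes (0.149%). The lowest p among the 9, before adjustment, was 0.0616, for Bcat1 (adjusted p = 0.592), so none was below 0.05 before adjustment. Macrophage markers moved with every comparison above: 9, 13 and 11 of 20 were called lower with antigen at 1% arginine, leucine and lysine and none higher. Of 18 mesothelial and stromal markers 8, 10 and 3 were called lower and none higher, with median log2 differences of -0.54, -0.51 and -0.36. Of 11 CD4 T cell markers 6, 4 and 4 were called higher and 0, 1 and 1 lower. The part of these markers in the results was not tested.

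**Figure D2:**
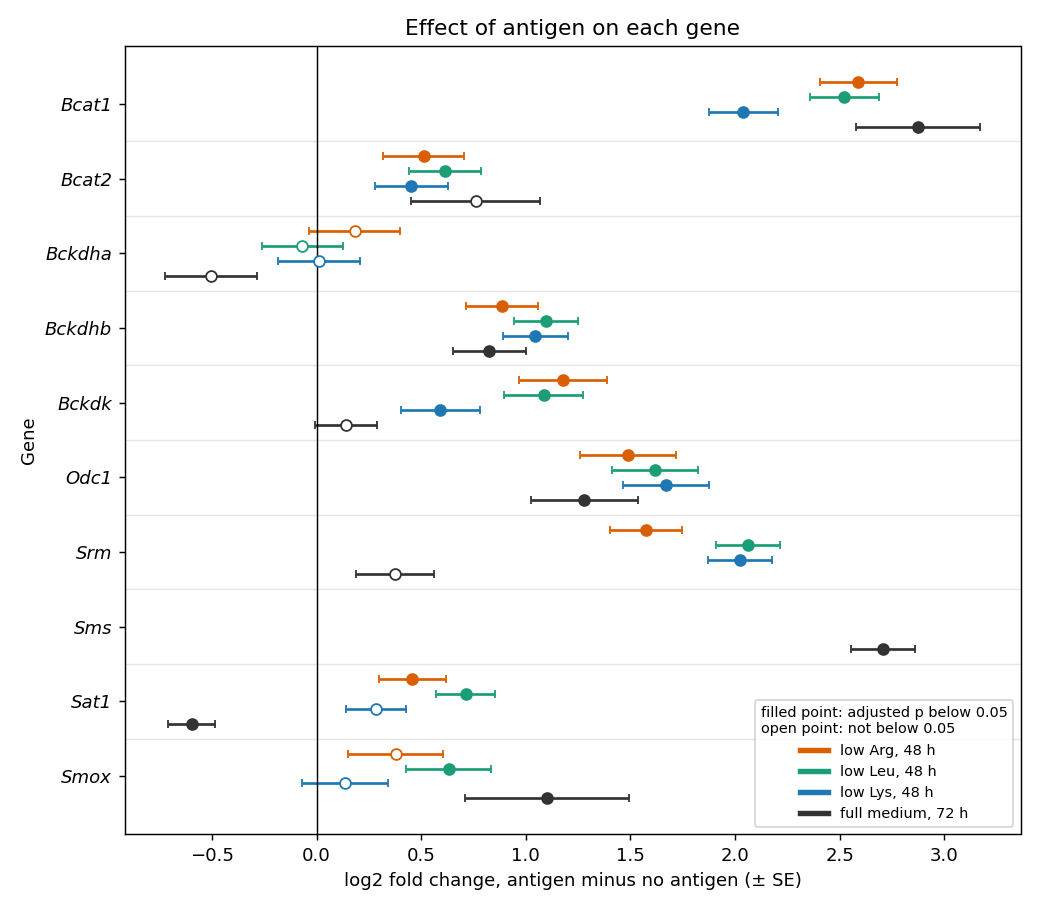
Log2 difference, antigen minus no antigen, for each gene (horizontal axis, ± SE) in the 3 low amino acid media at 48 h and in full medium at 72 h, which was another array type. Filled points had an adjusted p below 0.05. Bcat1 lies between 2.04 and 2.87 throughout, and Sat1 is positive at 48 h and negative at 72 h.

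At 72 h, in full medium, antigen raised Bcat1, Sms, Odc1, Bckdhb and Smox and lowered Sat1. Thus 5 of 10 genes were called higher and 1 lower, where 20.7% of all genes were called higher and 17.4% lower (38.2% in either direction). Bcat1 had 8.57, 8.89 and 8.40 with antigen, against 6.57, 5.42 and 5.25 without, a 7.33-fold increase (log2 difference 2.87 ± 0.30, adjusted p = 1.78e-05). Sms, the spermine synthase gene, had 10.35, 10.22 and 10.21 with antigen, against 7.30, 7.84 and 7.52 without, a 6.53-fold increase (2.71 ± 0.15, 3.47e-07). Neither gene's groups overlapped. All 3 probe sets of Bcat1 were higher with antigen, by 2.87, 2.52 and 0.56, as were all 3 of Sms, by 2.71, 1.95 and 1.29, each at an adjusted p below 0.05.

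Odc1 had 7.34, 8.34 and 7.54 with antigen at 72 h, against 6.66, 6.43 and 6.29 without (2.43-fold, adjusted p = 0.002). Bckdhb had 7.70, 8.08 and 7.68 with antigen, against 6.81, 7.02 and 7.15 without (1.77-fold, 0.00285). The groups were separate for both. Smox had 7.21, 5.81 and 7.01 with antigen, against 5.01, 5.81 and 5.91 without, so its groups overlapped. Its log2 difference of 1.1 ± 0.39 was marginal (adjusted p = 0.0461) and was not called when replicate 1 or 3 with antigen, or any 1 array without antigen, was left out (0.0526 to 0.169).

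Sat1 went the other way at 72 h. It had 10.64, 10.42 and 10.40 with antigen, against 11.11, 11.02 and 11.12 without, a 1.51-fold lower level (log2 difference -0.60 ± 0.11, adjusted p = 0.00132). When each array was centred on its median over genes the difference was -0.09 (adjusted p = 0.585). That centring moved the median of all genes from 0.02 to 0.53, with 11019 genes called higher and 1800 lower, against 3545 and 2982 without centring. Under it the differences of Bcat2, Bckdk and Srm were also called, at 1.27, 0.65 and 0.89. As deposited these were 0.76 (95% interval 0.08 to 1.44), 0.14 (-0.19 to 0.47) and 0.38 (-0.04 to 0.79), none of them called, and Bckdha at -0.50 (-0.99 to -0.02) was not called either. Bcat2 passed the threshold without replicate 1 lacking antigen (1.04, 0.0209), and Bckdha without antigen replicate 3 (-0.68, 0.0465), and both passed it with quantile normalization (Bcat2 at 0.87, 0.039, and Bckdha at -0.59, 0.0324). At this time 12 of 20 macrophage and 18 of 18 mesothelial and stromal markers were lower with antigen, with median log2 differences of -1.70 and -5.52, and 8 of 11 CD4 T cell markers were higher, with a median of 0.89. Their part in the result for Sat1 and for the genes that rose was not tested.

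**Figure D3:**
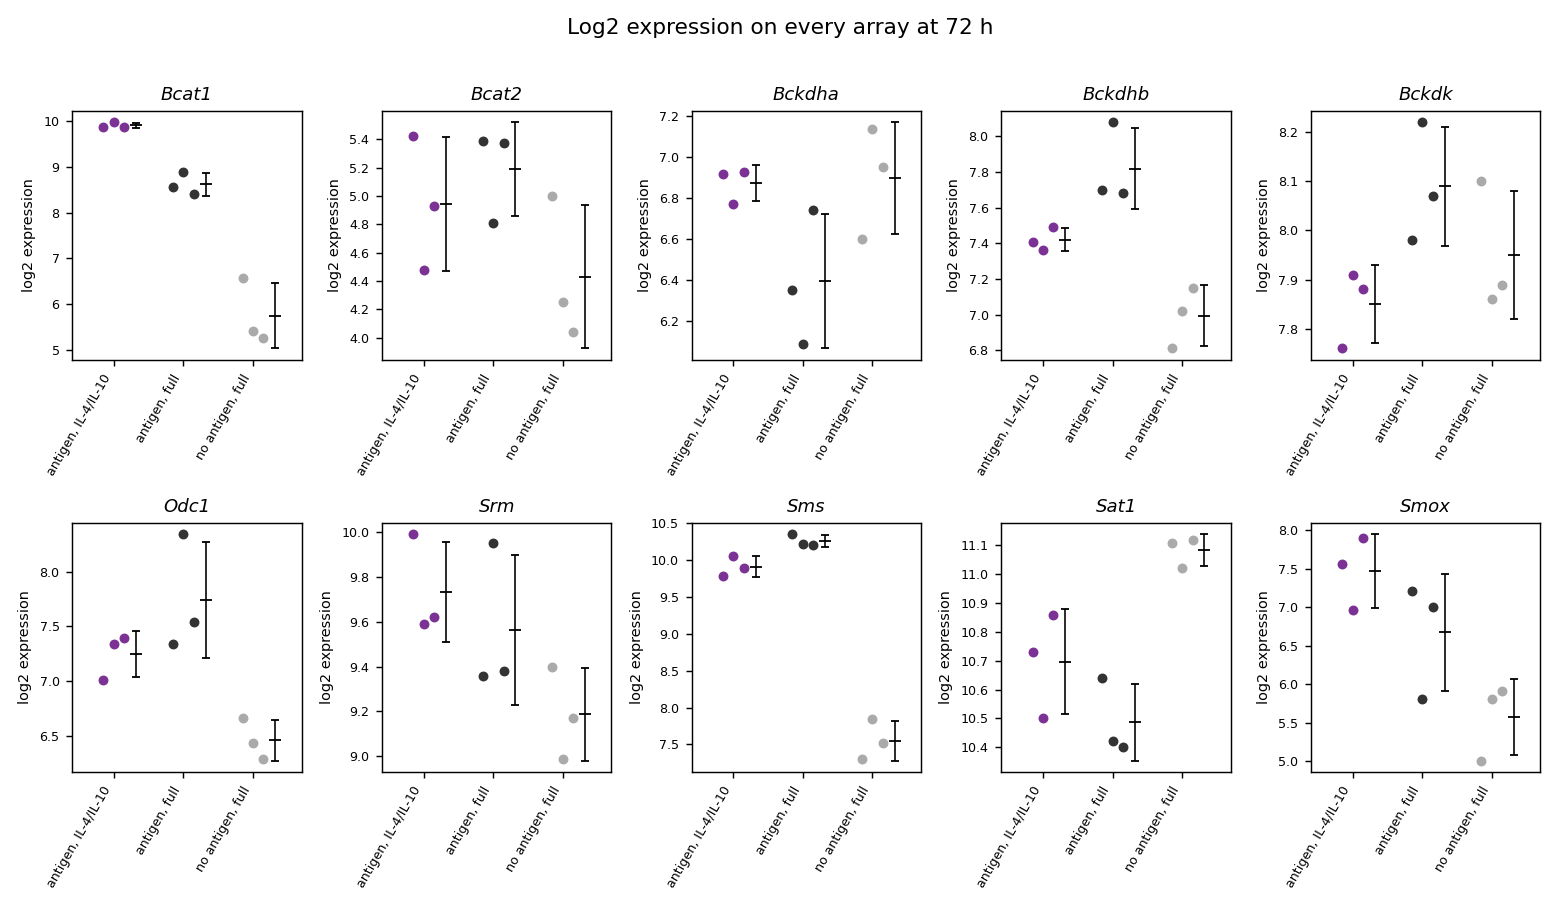
Log2 expression of the 10 genes on each of the 9 arrays at 72 h, with antigen on IL-4/IL-10-pretreated macrophages left, antigen alone in the middle and no antigen right. Points are arrays and bars the group mean ± SD (n = 3). Bcat1 is at 9.87 to 9.98 with pretreated macrophages, 8.40 to 8.89 with antigen alone and 5.25 to 6.57 without antigen, and Sat1 is highest without antigen.

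IL-4/IL-10 pretreatment of the macrophages lowered Bckdhb, Srm and Bckdk at 48 h and raised Bcat1 at 72 h. At 48 h 3 of 9 genes were called, all lower, where 5.93% of all genes were called lower and 2.71% higher (8.64%). Bckdhb had 6.28, 6.74 and 6.78 with pretreated macrophages, against 7.64, 7.57 and 7.35 with antigen alone (1.89-fold lower, log2 difference -0.92 ± 0.15, adjusted p = 0.000532). Srm had 8.56, 8.74 and 8.71 with pretreated macrophages, against 9.62, 9.48 and 9.50 with antigen alone (1.82-fold lower, -0.86 ± 0.15, 0.000857). Neither pair of groups overlapped, and both calls held under every alternative. Bckdk had 7.75, 7.72 and 7.99 with pretreated macrophages, against 8.41, 8.52 and 8.52 with antigen alone (1.58-fold lower, -0.66 ± 0.19, 0.0292). The Bckdk call ended without any 1 of the 6 arrays except pretreated replicate 3 (adjusted p from 0.0581 to 0.103) and with quantile normalization (0.0728).

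Odc1 had 8.29, 8.29 and 8.26 with pretreated macrophages at 48 h, against 8.79, 8.78 and 8.73 with antigen alone. Its groups were separate, but the difference of -0.49 ± 0.21 was not called when the spread was shared over all 48 h groups (adjusted p = 0.167), and was called when only these 6 arrays were fitted (0.0196). Bcat1 had 8.12, 8.39 and 8.37 with pretreated macrophages, against 8.11, 7.84 and 8.08 with antigen alone (0.28, 95% interval -0.06 to 0.62). Macrophage markers were higher in the pretreated cultures, with 7 of 20 called higher and a mean level of 6.69 to 7.13, against 6.42 to 6.48 with antigen alone. Their part in these results was not tested.

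At 72 h Bcat1 had 9.88, 9.98 and 9.87 with pretreated macrophages, against 8.57, 8.89 and 8.40 with antigen alone. The groups were separate, by 2.45-fold (log2 difference 1.29 ± 0.30, adjusted p = 0.0218). It was the only 1 of the 10 genes called, where 3.78% of all genes were called higher and 5.91% lower (9.69%). All 3 Bcat1 probe sets were higher, by 1.29, 1.24 and 1.03, each at an adjusted p below 0.05. The call ended without replicate 1 or 3 of either group (adjusted p from 0.0556 to 0.0965) and with the run of submitter numbers as a block (1.20, 0.336). The replicate numbers paired these arrays, and with them as a block Bcat1 remained the only gene of the 10 called. Macrophage markers averaged 4.14 to 4.30 with pretreated macrophages, against 3.90 to 3.91 with antigen alone, and 1 of 20 was called higher. Markers of alternatively activated macrophages were at 4.15 to 4.37, against 3.715 to 3.85, with 2 of 10 called higher. Mesothelial and stromal markers were at 4.25 to 5.81, against 3.95 to 4.27, with 1 of 18 called higher and 1 lower. Their part in the Bcat1 result was not tested. Against cultures with no antigen, the pretreated cultures had 5 of the 10 genes called higher and 1 lower, where 16.9% of all genes were higher and 15.6% lower (32.5%). Bcat1 was higher by 4.16 ± 0.30 (1.74e-06), Sms by 2.36 ± 0.15 (9.2e-07) and Smox by 1.90 ± 0.39 (0.00294) on the log2 scale, and Odc1 (0.79, 0.0359), Srm (0.55, 0.0444) and Sat1 (-0.39, 0.0206) were called at values that leaving out 1 array could end (adjusted p up to 0.153); with centred arrays Sat1 turned to 0.057. The genes called at 48 h were not called at 72 h: Bckdhb differed by -0.40 (95% interval -0.79 to -0.01), Bckdk by -0.24 (-0.57 to 0.09) and Srm by 0.17 (-0.24 to 0.58). The difference between the 2 times was not tested, since the array types differ.

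Low amino acid media were set against full medium among the antigen cultures of 48 h. At 1% arginine 1 of 9 genes was called higher and 2 lower, where 1.51% of all genes were called higher and 3.17% lower (4.67% in all). At 1% leucine 1 was called higher, where 1.15% of all genes were higher and 1.56% lower (2.72%). At 1% lysine 1 was called lower, where 2.49% of all genes were higher and 6.24% lower (8.73%). Calls in all genes at 1% arginine split into 334 higher and 702 lower, or 413 and 497 after quantile normalization, and at 1% lysine into 553 and 1383, or 370 and 1642 after centring. These comparisons and that of the pretreated macrophages share the full-medium arrays as a control, and those arrays carry submitter numbers from other consecutive runs than the low-medium arrays, so run and medium cannot be told apart.

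Bcat1 was higher at 1% arginine, with 8.53, 8.52 and 8.91, and at 1% leucine, with 8.67, 8.60 and 8.69, against 8.11, 7.84 and 8.08 in full medium. Each was 1.56-fold higher and separate from full medium, with a log2 difference of 0.64 ± 0.16 (adjusted p = 0.0235 at 1% arginine and 0.0336 at 1% leucine). The 1% arginine call ended without full-medium replicate 2 or 3 or 1% arginine replicate 3 (adjusted p from 0.0576 to 0.137), and the 1% leucine call without any 1 of its 6 arrays (0.0678 to 0.18) or with centred arrays (0.0527). At 1% lysine Bcat1 had 8.56, 8.17 and 8.27, also above every full-medium array, with a difference of 0.32 (95% interval -0.02 to 0.66) that was not called. CD4 T cell markers were also higher at 1% arginine and 1% leucine, with a mean of 10.54 to 10.65 and 10.54 to 10.61. In full medium it was 10.36 to 10.41. Of the 11 measured, 3 and 2 were called higher and 1 in each lower. Of all genes 1.51% and 1.15% were higher and 3.17% and 1.56% lower. At 1% lysine 0 were called higher and 1 lower. The part of these markers in the Bcat1 and Sat1 results was not tested.

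At 1% arginine Srm fell to 8.75, 8.78 and 9.06, against 9.62, 9.48 and 9.50 in full medium (1.59-fold lower, log2 difference -0.67 ± 0.15, adjusted p = 0.0111). Bckdhb had 6.87, 7.19 and 6.85 at 1% arginine, against 7.64, 7.57 and 7.35 in full medium (1.46-fold lower, -0.55 ± 0.15, 0.0419). No array of either gene overlapped, but leaving out full-medium replicate 1 or 1% arginine replicate 1 or 2 ended the Srm call (adjusted p from 0.0583 to 0.0676), and leaving out any 1 array except 1% arginine replicate 2 ended the Bckdhb call (0.0513 to 0.168), as did quantile normalization (-0.42, 0.177). Odc1 was at -0.51 (95% interval -0.93 to -0.08, adjusted p = 0.194) and Bckdk at -0.39 (-0.79 to -0.00, 0.307), both with separate groups, and both were called when only the 6 arrays were fitted (0.00985 and 0.0374). For comparison, at 1% leucine Srm was at -0.11 (-0.43 to 0.21), Bckdhb at -0.16 (-0.48 to 0.16) and Odc1 at -0.08 (-0.51 to 0.34), none of them called.

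**Figure D4:**
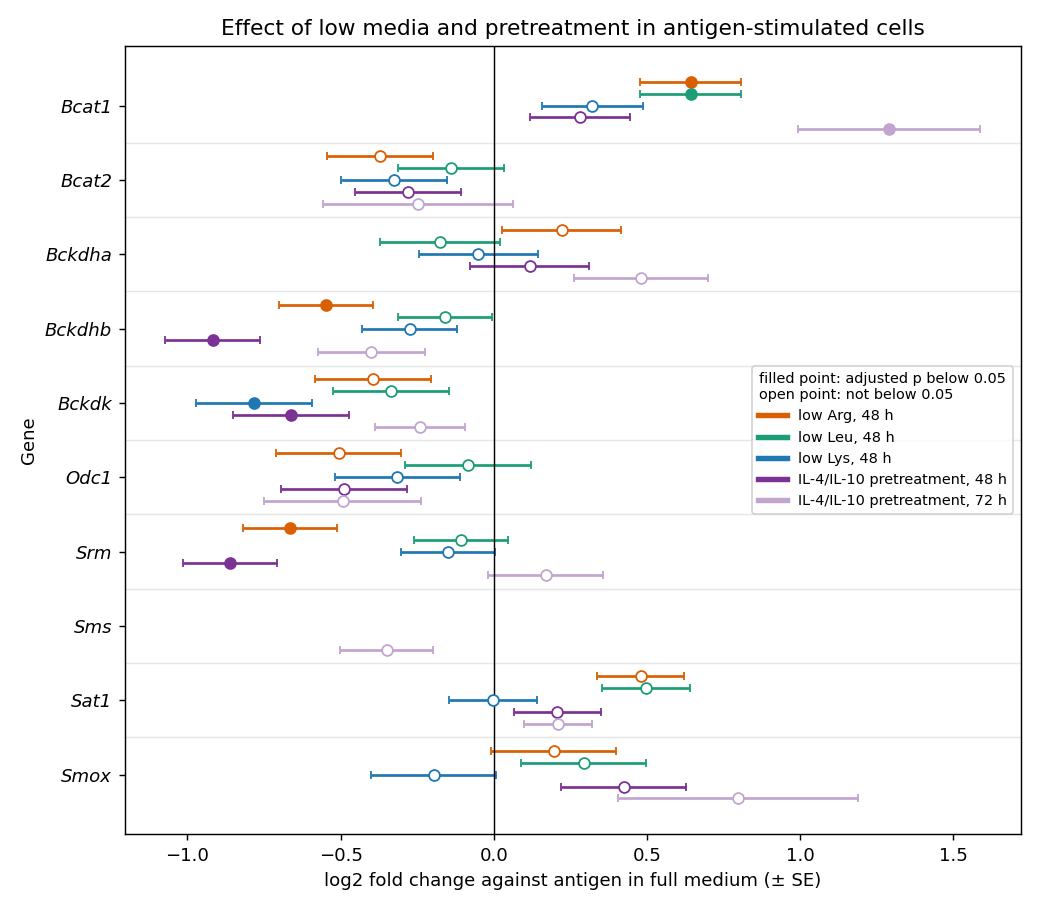
Log2 difference from antigen in full medium (horizontal axis, ± SE) for each gene in low arginine, low leucine and low lysine medium at 48 h and with IL-4/IL-10-pretreated macrophages at 48 h and 72 h. Filled points had an adjusted p below 0.05. Bcat1 lies to the right of 0 in all 5 comparisons, and Bckdhb and Srm lie lowest with pretreated macrophages and low arginine at 48 h.

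Sat1 had 9.38, 9.46 and 9.36 at 1% arginine, 9.47, 9.34 and 9.45 at 1% leucine and 9.04, 8.83 and 8.88 at 1% lysine, against 8.82, 8.97 and 8.97 in full medium. The arrays of 1% arginine and 1% leucine all lay above full medium, and those of 1% lysine overlapped it. The log2 differences of 0.48 ± 0.14 and 0.50 ± 0.14 just missed the threshold (adjusted p = 0.0551 and 0.0666) and passed it with quantile normalization (0.0131 and 0.0242), with dim genes left out (0.0351 and 0.0437) and with the 6 compared arrays alone (0.00292 and 0.00262). At 1% lysine Bckdk was the gene called, at 7.56, 7.45 and 8.09, against 8.41, 8.52 and 8.52 in full medium (1.72-fold lower, -0.78 ± 0.19, 0.0113). Without 1% lysine replicate 1 or 2 it was not called (0.0602 and 0.0771), nor with quantile normalization (0.0622). B cell markers were higher at 1% lysine than in full medium, with 4 of 7 measured called higher and a mean level of 5.47 to 6.49, against 5.21 to 5.31. Their part in the Bckdk result was not tested.

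The 3 low media with antigen were also compared with each other by limma, and none of the 9 genes was called, where 0.712% of all genes were for arginine against leucine (0.234% higher, 0.478% lower), 3.22% for arginine against lysine (2.65% higher, 0.577% lower) and 1.88% for leucine against lysine (1.59% higher, 0.289% lower). Before adjustment 2, 2 and 3 of the 9 genes had a p below 0.05. Srm was at -0.56 ± 0.15 for arginine against leucine (adjusted p = 0.111) and Odc1 at -0.42 ± 0.21 (0.527), both with separate groups. For leucine against lysine, Bckdk passed the threshold without 1% lysine replicate 3 (0.64, 0.0485). For arginine against leucine, Srm was called lower at 1% arginine when only those 6 arrays were fitted (0.0115). The replicate numbers paired the arrays of these 2 media, and with the number as a block in a fit of the same 6 arrays Srm (0.00503) and Odc1 (0.0499) were called lower. Among cultures without antigen, none of the 9 genes was called between any 2 media and none had a p below 0.05 before adjustment, where 0, 1 and 2 of 22180 genes were called (0%, 0.00451% and 0.00902%).

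Antigen on pretreated macrophages was set against antigen in each low medium as well. The pretreated arrays carry submitter numbers from other consecutive runs than the low-medium arrays, so run and treatment cannot be told apart. Against 1% arginine none of the 9 genes was called, where 1.52% of all genes were higher and 1.85% lower (3.37% in all), and 2 had a p below 0.05 before adjustment. Against 1% leucine Bckdhb (-0.76, adjusted p = 0.00425) and Srm (-0.75, 0.00429) were called lower, where 2.45% of all genes were higher and 3.47% lower (5.92%). Against 1% lysine the same 2 genes were called lower, at -0.64 (0.0181) and -0.71 (0.00849), where 2.78% of all genes were higher and 0.757% lower (3.53%), but not when only those 6 arrays were fitted (0.201 and 0.118). The Bckdhb call against 1% lysine also ended without pretreated replicate 1 (0.115) or 1% lysine replicate 2 (0.0721). Without single arrays, Bckdha passed the threshold against 1% leucine (pretreated replicate 1 left out, 0.60, 0.0472) and Smox against 1% lysine (1% lysine replicate 3 left out, 0.80, 0.0356). Against 1% arginine, leucine and lysine, 4, 8 and 9 of 20 macrophage markers were called higher with pretreated macrophages and none lower. Of 10 markers of alternatively activated macrophages 6 were called higher each time. Of 11 CD4 T cell markers 1, 2 and 0 were called lower and none higher. Against 1% lysine 3 of 7 B cell markers were called lower. The part of these markers in the results was not tested.

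Part of the rest of the branched-chain pathway changed with antigen. Of 20 further genes of the pathway measured at 48 h, 9 were called higher and 1 lower at 1% arginine, 13 and 1 at 1% leucine, and 11 and 1 at 1% lysine, while 10, 6 and 8 were not called. Of all genes 17.2%, 21.8% and 18.4% were called higher and 12.2%, 19.5% and 12.6% lower. The median log2 changes of the 20 genes were 0.23, 0.62 and 0.46, and those of all genes -0.12, -0.13 and -0.09. Dbt and Dld, the E2 and E3 components of the ketoacid dehydrogenase complex, rose in all 3 media, Dbt by 0.94 ± 0.15, 0.82 ± 0.14 and 0.78 ± 0.14 and Dld by 1.30 ± 0.14, 1.28 ± 0.13 and 1.17 ± 0.13. Hsd17b10, a dehydrogenase of isoleucine breakdown, rose by 0.99 ± 0.16, 1.70 ± 0.14 and 1.96 ± 0.14. The gene called lower in each medium was Ppm1k, the phosphatase that reactivates the complex, at -0.50 ± 0.18, -0.71 ± 0.16 and -0.45 ± 0.16 (adjusted p = 0.0375, 0.00111 and 0.0362).

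At 72 h 4 of 17 further branched-chain genes were called higher with antigen and 3 lower, close to the shares of all genes (20.7% higher and 17.4% lower). Hibch, of valine breakdown, rose by 1.65 ± 0.18, and Mmut, the methylmalonyl-CoA mutase gene, by 0.83 ± 0.16. Aldh6a1, of valine breakdown, fell by 2.60 and Acadsb, of isoleucine breakdown, by 1.11 on the log2 scale. Dbt was at 0.21 ± 0.16 and Ppm1k at 0.30 ± 0.18, and neither was called. With pretreated macrophages 4 of the 17 were called lower and none higher than with antigen alone, where 5.91% of all genes were lower and 3.78% higher. Among the 4 were Hibch (-1.0 ± 0.18) and Mccc2, of leucine breakdown (-0.95 ± 0.19). Of the 20 genes at 48 h in low media against full medium, none rose and 2 fell at 1% arginine (Mccc1 at -0.62 and Acat1 at -0.58), 1 rose at 1% leucine (Hsd17b10 at 0.64), and 1 rose and 1 fell at 1% lysine (Hsd17b10 at 0.82 and Mcee at -0.95). Of all genes 4.67%, 2.72% and 8.73% were called in either direction in these 3 comparisons.

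Among 17 further polyamine genes measured at 48 h, antigen raised 5 and lowered 4 at 1% arginine, raised 5 and lowered 2 at 1% leucine, and raised 5 and lowered 3 at 1% lysine. Of all genes 29.4%, 41.3% and 31% were called in either direction, and at 1% leucine the share of the 17 was about that of all genes. Azin1, which encodes an inhibitor of the antizymes that restrain ODC1, rose in all 3 media by 1.49 ± 0.17, 1.03 ± 0.16 and 1.63 ± 0.16, and by 1.00 ± 0.18 at 72 h. The antizyme gene Oaz1 rose at 1% arginine (0.77 ± 0.19, adjusted p = 0.00347) and was not called at 1% leucine (0.29) or 1% lysine (0.41). Eif5a, whose protein carries hypusine made from spermidine, rose by 1.15 ± 0.17, 1.1 ± 0.15 and 1.26 ± 0.15. At 72 h 5 of 14 were called higher and 4 lower, where 20.7% of all genes were higher and 17.4% lower, with Dohh (0.85) and Dhps (0.74), the hypusine enzymes, among those that rose, and Slc18b1, a polyamine carrier gene, at -4.60 ± 0.21 among those that fell.

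Arg1, the arginase that makes ornithine, is also a gene of alternatively activated macrophages. At 48 h its level in antigen cultures differed between full medium and each other group. Against antigen in full medium Arg1 was higher by 1.84 ± 0.24 with pretreated macrophages (adjusted p = 3.45e-05 by limma). It was lower at 1% arginine (-1.76 ± 0.24), 1% leucine (-1.59 ± 0.24) and 1% lysine (-1.49 ± 0.24). Of the 17 further polyamine genes, which include Arg1 and Arg2, 4, 2 and 3 were called lower in these media and none higher. Of all genes 3.17%, 1.56% and 6.24% were lower and 1.51%, 1.15% and 2.49% higher. With pretreated macrophages 2 of the 17 were called higher and 4 lower, where 2.71% of all genes were higher and 5.93% lower. In the low-medium comparisons run and medium cannot be told apart. Arg2 was higher with pretreated macrophages (0.68 ± 0.18, 0.0176). The mean of 10 markers of alternatively activated macrophages, Arg1 among them, lay between 6.55 and 6.92 with pretreated macrophages, 4.98 and 5.17 at 1% arginine, 4.94 and 5.15 at 1% leucine, and 5.16 and 5.39 at 1% lysine, against 5.40 to 5.57 in full medium. Its part in the Arg1 values was not tested. At 72 h Arg1 fell by 4.65 ± 0.71 with antigen against no antigen.

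Of 8 measured genes of methionine salvage and the methyl cycle, which supplies the aminopropyl donor of spermidine and spermine, antigen raised 4, 5 and 6 at 1% arginine, leucine and lysine and lowered 1 in each, where 17.2%, 21.8% and 18.4% of all genes were higher and 12.2%, 19.5% and 12.6% lower. Ahcy, whose enzyme clears S-adenosylhomocysteine, rose by 2.33 ± 0.24, 2.33 ± 0.21 and 1.80 ± 0.21, Got1, an aspartate aminotransferase gene, by 2.07 ± 0.17, 2.27 ± 0.16 and 2.42 ± 0.16, and Apip, the dehydratase of the salvage route, by 1.45 ± 0.15 and 1.1 ± 0.14 at 1% arginine and 1% leucine. Adi1 was the gene called lower in each (-0.78, -0.61 and -0.51). With pretreated macrophages at 48 h 4 of the 8 were called lower and none higher, where 5.93% of all genes were lower and 2.71% higher. The 4 included Ahcy (-1.17 ± 0.21), Enoph1 (-0.70 ± 0.18) and Mri1 (-0.70 ± 0.18).

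The genes with the most similar pattern were found by Pearson correlation over the 23 arrays of 48 h, among the 11090 genes with the higher means, and are given as a description, since the arrays fall into groups with and without antigen. Bcat1 was closest to Chchd10 (r = 0.987) and to Lag3, an inhibitory receptor gene (0.985), which within the 15 antigen arrays gave 0.882 and 0.840. Odc1 was closest to Polr2g (0.967) and Kars, a lysyl-tRNA synthetase gene (0.965), with 0.855 and 0.883 within the antigen arrays. Srm was closest to Nhp2, of small nucleolar ribonucleoproteins (0.988), and Hyou1, an endoplasmic reticulum chaperone gene (0.987), with 0.927 and 0.942. Bckdhb was closest to Tomm40, of the mitochondrial import pore (0.966), and Bckdk to Polr1d (0.965). Bckdha (0.658 with H2-Oa), Smox (0.824 with Trip4) and Sat1 (0.897 with Tmem234) had less similar nearest genes. Over the 9 arrays of 72 h, Bcat1 gave 0.869 with Lag3, and Odc1 gave 0.865 with Polr2g and 0.931 with Kars. Other pairs were weaker there: Srm gave 0.638 with Nhp2 and 0.633 with Hyou1, Smox 0.643 with Trip4, and Bckdk 0.402 with Polr1d. Sat1 gave 0.008 with Tmem234 and Bckdha -0.505 with H2-Oa. Chchd10 and Tomm40 had no value at 72 h.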

How the data were processed

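The authors deposited log2 expression values per probe set, which the submitters' processing notes credit to RMA in version 1.1 of the Affymetrix Expression Console; which arrays were normalized together is not given in the sources used here. Probe sets were named through the platform annotation. At 48 h 23521 of 41345 matched a unique gene and 1814 more than 1, and at 72 h 28898 of 45037 and 551. Those with more than 1 gene were left out, and the probe set with the highest mean stood for a gene. The 2 array types were fitted separately with limma 3.58.1 in R 4.3.3 (lmFit, eBayes with an intensity trend), all groups of an array type together, in 19 comparisons and an F test, two-sided, with Benjamini-Hochberg adjustment over all genes. The step was tested on simulated data.

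The genes and gene lists were chosen with earlier results of these data known. All 10 genes are named, and of each list the direct partners Dbt, Dld, Ppm1k, Azin1, Oaz1, Arg1 and Arg2 and at most 3 called genes per direction with the largest change. The GC and TATA boxes were added after values were seen. Among the listed genes, Amd1, Amd2, Paox and Mat2a were not analysed here at either time, nor Dld, Ivd, Mcee, Oaz1, Eif5a2, Agmat and Got1 at 72 h. Deviations from group means, over 5000 genes, correlated above 0.1 in every same-numbered pair only for 1% arginine against 1% leucine with antigen (0.294 to 0.39) and for the pretreatment at 72 h (0.16 to 0.261); same-numbered arrays of the first also share a run of submitter numbers. Alternatives were quantile normalization, centring, a filter on dim genes, the mean of probe sets, compared groups only, blocks and leaving out each array. The blocks were replicate numbers, or runs that were cut here from the submitter numbers and are not given by the labels. The number of arrays limits the precision. Python 3.11.15, pandas 2.3.3 and matplotlib 3.10.9 made tables and plots.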

Additional observations from a re-analysis of the deposited data

Results flagged for a closer look

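Sat1 was marked because its arrays moved in opposite directions with antigen at the 2 times. At 48 h every array with antigen lay above every array without it at 1% arginine (log2 difference 0.46) and at 1% leucine (0.71), and at 72 h in full medium every array with antigen lay below every array without it (-0.60). The difference between these effects was not tested, since the medium, the time and the array type all differ. With arrays centred on their median the 72 h value was -0.09.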

How the results depend on the processing

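Of 46 gene results called in the 19 comparisons, 27 kept their direction and call under every alternative. Of 137 not called, which include the F test results of the 9 genes at 48 h, 116 stayed so. The 1 reversal was Sat1 with pretreated macrophages against no antigen at 72 h, at 0.057 (adjusted p = 0.724) with centred arrays and -0.39 as reported. Counts of the 9 or 10 genes called that moved by over 1.5 times were as follows. Quantile normalization gave 2 at 1% leucine against full medium (1 as reported), 0 at 1% lysine against full medium (1) and 1 for 1% arginine against 1% lysine (0). Centring gave 0 at 1% leucine against full medium. Leaving out dim genes gave 2 at 1% leucine against full medium, 2 for 1% arginine against 1% lysine and 1 for 1% leucine against 1% lysine (0). Fitting the compared groups only gave 6 at 1% arginine and 3 at 1% leucine against full medium (3 and 1), 1 for 1% arginine against 1% leucine (0), and 0 for pretreated macrophages against 1% lysine (2). With the replicate block these were 6, 3, 2 and 0, and with the run of submitter numbers as a block 2 for 1% arginine against 1% leucine and 0 for the pretreatment at 72 h (1). The block changed no other call where the numbers paired the arrays. The cause was not tested.

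Leaving out each array in turn left 5 to 6, 7 to 8 and 4 to 7 genes called for antigen at 1% arginine, leucine and lysine, 1 to 2, 0 and 0 to 1 for these media against full medium, and 2 to 3 and 0 to 1 for the pretreatment at 48 h and 72 h. It left 0, 2 to 3 and 1 to 3 for pretreated macrophages against 1% arginine, leucine and lysine, 0, 0 and 0 to 1 between the low media with antigen, 0 between those without and for the F test, and 5 to 6 and 3 to 5 at 72 h for antigen alone and on pretreated macrophages against none. Where 1% arginine without antigen was left with 1 array, it was assumed to vary like the other groups.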
